A study of Mus musculus with 8 samples.

Results

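Basement membrane transcripts were compared between parental mouse embryonic stem cells and a Tbx1-mutant line after differentiation towards precardiac mesoderm. The 10 genes were taken by name from a count table of 55487 genes: the collagen IV genes Col4a1 and Col4a2, the laminin genes Lama1, Lama4, Lama5, Lamb1 and Lamc1, the nidogens Nid1 and Nid2, and Hspg2, which encodes perlecan. Each name matched 1 row, and all 10 rows passed the filter on low counts. The parental group was E14-Tg2a with genotype WT and the mutant group was its line 4D with genotype Tbx1-/-, with 4 biological replicates each. Both groups were grown in serum-free medium and harvested on day 6. Tbx1 encodes a T-box transcription factor of the pharyngeal and heart-forming mesoderm. All mutant libraries came from 1 line, so that the genotype and other properties of that line cannot be told apart.

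Basement membranes are thin sheets of matrix beneath epithelia and endothelia and around muscle cells. Collagen IV protomers, mostly made of Col4a1 and Col4a2 chains, form a covalently crosslinked network. Laminins are heterotrimers of an alpha, a beta and a gamma chain and form a second network that cells bind through integrins and dystroglycan. Nidogens and perlecan bind components of both networks. The alpha chain sets much of a laminin's receptor binding: Lama1 is typical of the early embryo, Lama4 of endothelium, muscle and other mesodermal tissue, and Lama5 of many epithelia and of vessels.

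Start regions are shown for Col4a1, because it shares its start region with Col4a2, and for Lama5 and Nid1, because these had the smallest p-values of the 10 genes, in opposite directions. The sequences are from RefSeq on GRCm38.p6 and run 5′ to 3′ along the gene from 250 bases before the annotated start, 300 bases each. Capitals mark GC boxes (GGGCGG) and CCAAT boxes (CCAAT), searched on both strands.
Col4a1, chr8:11312777-11313076, minus strand: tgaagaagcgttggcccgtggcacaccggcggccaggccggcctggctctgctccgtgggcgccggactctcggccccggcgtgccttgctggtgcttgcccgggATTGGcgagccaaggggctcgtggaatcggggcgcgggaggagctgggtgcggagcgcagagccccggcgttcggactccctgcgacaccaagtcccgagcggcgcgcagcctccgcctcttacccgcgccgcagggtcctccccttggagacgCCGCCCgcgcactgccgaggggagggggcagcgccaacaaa
Lama5, chr2:180225810-180226109, minus strand: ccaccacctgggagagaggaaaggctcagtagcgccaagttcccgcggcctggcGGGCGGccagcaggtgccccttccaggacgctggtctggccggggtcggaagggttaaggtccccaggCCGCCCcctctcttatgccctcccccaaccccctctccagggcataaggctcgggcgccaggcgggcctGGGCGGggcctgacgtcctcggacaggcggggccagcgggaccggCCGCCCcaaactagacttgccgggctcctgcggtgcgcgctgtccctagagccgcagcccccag
Nid1, chr13:13437352-13437651, plus strand: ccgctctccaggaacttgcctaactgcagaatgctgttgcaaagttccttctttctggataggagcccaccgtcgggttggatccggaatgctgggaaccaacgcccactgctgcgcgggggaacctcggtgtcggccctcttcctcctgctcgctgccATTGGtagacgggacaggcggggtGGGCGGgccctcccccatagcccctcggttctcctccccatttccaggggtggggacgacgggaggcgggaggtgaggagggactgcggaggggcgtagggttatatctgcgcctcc

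Col4a1 and Col4a2 lie head to head on chromosome 8. Their annotated starts, at 11312826 on the minus strand and 11312805 on the plus strand, are 21 bases apart, and their start regions share 78 bases. The GC box of the Col4a1 sequence, at 11312812 to 11312817, is also a GC box of the Col4a2 region. Start regions were on hand for 6 of the 10 genes: Col4a1, Col4a2, Lama5, Lamb1, Nid1 and Hspg2. All 6 held a GC box, against 35.7% of the 32851 start regions of the same length. The CCAAT box occurred in 4 of the 6, against 37.4% of all regions, and was not found in those of Lama5 and Hspg2. Neither the TATA box letters (TATAAA), present in 13.6% of all regions, nor the T-box core (GGTGTGA), present in 3.98%, were found in the 6 windows. No motif searched overlapped another in the 3 printed sequences. The GC content of the 6 regions was 63.7% to 74.0%, against a median of 52.7% over all regions. Such matches describe letters and were not tested as binding sites.

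The libraries held 3803561 to 6293907 counts, and the 10 genes took 0.0718% to 0.117% of them. Tbx1 had 22 to 65 counts in parental and 0 to 3 in mutant libraries. Mutant library 4 stood apart, with 14850 genes detected against 18213 to 19134 in the other 7. Its most highly counted row took 17.7% of its counts, the largest such share of any library. Levels are given as CPM, the counts of a gene scaled to a common library total. QuantSeq reads the 3′ end of each transcript, so that CPM needs no division by length to be compared between genes, although priming can differ from gene to gene. The labelled cell type was checked against 10 genes of precardiac and pharyngeal mesoderm. All 10 passed the filter on low counts, although Tbx5 and Nkx2-5 were at 0 in mutant library 4. Their summed levels were 1278 to 1575 CPM in the parental line and 1169 to 1366 CPM in line 4D. Hand1 and Hand2 made up most of these sums. In edgeR 0 of the 10 had an adjusted p under 0.05, and 5 had an unadjusted p under 0.05, against 11.9% of all genes. Of the 10 log2 fold changes 9 were negative, with a median of -0.56. Isl1 and Hand1 were lower and Hand2 was higher in line 4D without overlap. Over all genes tested, 4.04% were lower and 3.49% higher without overlap. The cultures are mixtures, and in such bulk samples fewer cells of a type and less RNA per cell cannot be told apart.

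None of the 10 genes passed the threshold between the lines, an adjusted p under 0.05 over all 13280 genes tested in the edgeR quasi-likelihood test. The same rule called 188 genes, or 1.42%, over the whole table, of which those higher in the mutant line were 0.745% and those lower were 0.67% of all genes. An unadjusted p under 0.05 was found for 2 of the 10, Lama5 and Nid1, against 11.9% of all genes. Of the 10 log2 fold changes, 7 were positive, and their median was 0.16, against 0.00 over all genes. The 95% interval of the fold change lay within 1.5-fold in either direction for 4 genes, Col4a1, Lamb1, Lamc1 and Hspg2, and within 2-fold for 7. The clearest difference was in Lama5, which was lower in all 4 mutant libraries than in any parental library and just missed the threshold.

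**Figure D1:**
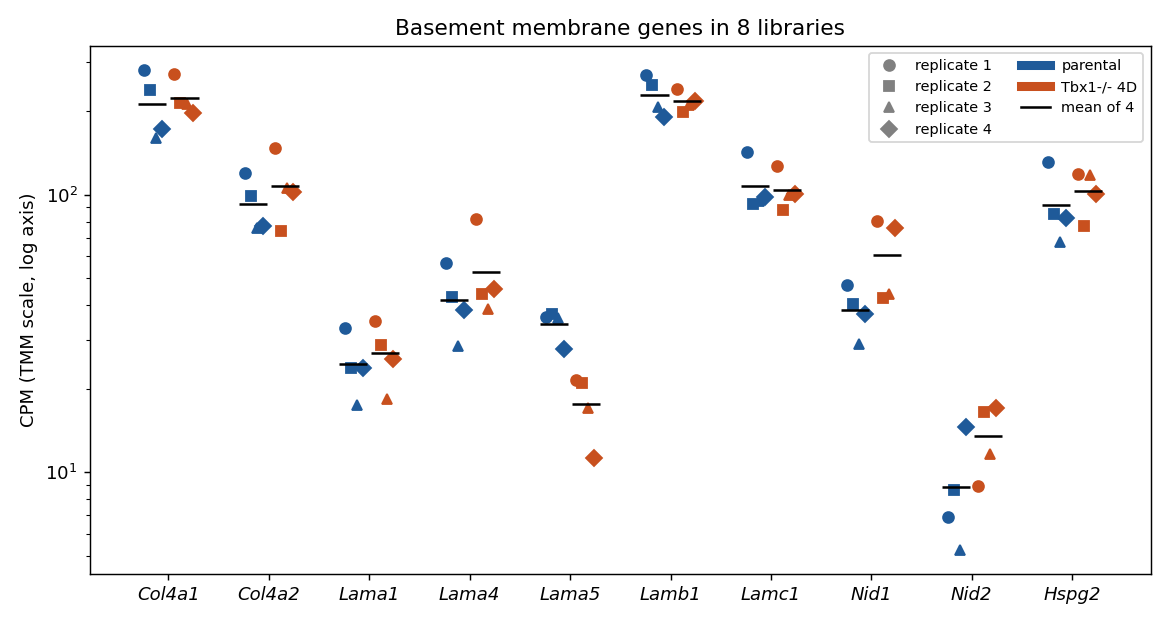
Level of each of the 10 genes in each library, in CPM on a log axis. Blue symbols are parental and orange symbols Tbx1-/- 4D libraries, the symbol shape gives the replicate number and black lines are means of 4. The lines overlap for every gene except Lama5, whose mutant values of 11.3 to 21.5 CPM all lie below the parental values of 27.8 to 37.1 CPM.

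The genes fell into steps of level. Lamb1 and Col4a1 were the most abundant, with means over the 8 libraries of 223 and 218 CPM. Lamc1, Col4a2 and Hspg2 followed at 105, 100.1 and 97.6 CPM. Nid1 and Lama4 had 49.5 and 47.1 CPM, Lama5 and Lama1 had 26.0 and 25.7 CPM, and Nid2 was lowest at 11.2 CPM. Neighbours within a step differed by less than their spread between libraries. Lamb1 ranked at the 95.05th percentile of tested genes by level and Nid2 at the 34.5th. The only laminin beta and gamma genes among the 10 were thus above the 3 alpha genes, whose means summed to less than that of Lamc1.

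Neither collagen IV gene passed the threshold between the lines. Col4a1 (ENSMUSG00000031502.11, chromosome 8, 11198423 to 11312826, minus strand) had 281, 238, 159 and 172 CPM in parental libraries 1 to 4 and 273, 214, 211 and 197 CPM in mutant libraries 1 to 4, the order used for all values by library. Every mutant value lay inside the parental range. Its log2 fold change was 0.08 ± 0.16 (SE) with edgeR's adjusted p at 0.908, and the 95% interval in fold terms ran from 0.835 to 1.33. Col4a2 (ENSMUSG00000031503.13, chromosome 8, 11312805 to 11449287, plus strand) had 119.6, 98.9, 76.1 and 76.9 CPM in the parental line and 148, 73.9, 106 and 102 CPM in line 4D. Mutant library 1 was the highest and mutant library 2 the lowest of the 8, so that the mutant line spanned the parental range. The log2 fold change of Col4a2 was 0.21 ± 0.19 (SE) with edgeR's adjusted p at 0.725. Its 95% interval in fold terms ran from 0.880 to 1.52.

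Both chains assemble into 1 protomer, commonly with more Col4a1 than Col4a2, and their counts were therefore also set against each other within each library, which needs no scaling. The ratio of Col4a1 to Col4a2 was 2.35, 2.4, 2.09 and 2.24 in parental libraries 1 to 4. It was 1.85, 2.90, 2.00 and 1.92 in mutant libraries 1 to 4. Of the mutant ratios 3 lay below every parental one and that of library 2 lay above them all. The mean log2 ratio was 1.18 ± 0.09 in parental and 1.09 ± 0.30 in mutant libraries (SD, n = 4), a difference within the spread (two-sided exact permutation test, p = 0.6, 0.9 after adjustment over 6 ratios and shares).

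The shared beta and gamma chains of the laminins showed narrow intervals around 0. Lamb1 (ENSMUSG00000002900.17, chromosome 12, 31265234 to 31329644, plus strand) had 269.7, 248, 207 and 190.1 CPM in the parental line and 239.5, 199, 211 and 218 CPM in line 4D. All mutant values lay within the parental range. Its log2 fold change was -0.08 ± 0.12 (SE), with edgeR's adjusted p at 0.866 and a fold interval of 0.794 to 1.13. Lamc1 (ENSMUSG00000026478.14, chromosome 1, 153218922 to 153332786, minus strand) had 142, 92.9, 95.1 and 98.4 CPM in the parental line and 127, 87.8, 99.7 and 100.3 CPM in line 4D. The replicate 1 library was the highest in each line. The log2 fold change of Lamc1 was -0.04 ± 0.16 (SE), with edgeR's adjusted p at 0.954. A further annotated transcript, Gm38009, lies within Lamc1 on the same strand and had 128 counts in parental and 248 in mutant libraries in all, so that reads of this region may be split between both names. Lamb1 exceeded Lamc1 by 1.90 to 2.66 times in parental and by 1.88 to 2.26 times in mutant libraries, with no difference beyond the spread (two-sided exact permutation test, p = 0.771, adjusted 0.914).

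Among the laminin alpha chains, Lama5 differed in direction from Lama1 and Lama4. Lama5 (ENSMUSG00000015647.9, chromosome 2, 180176373 to 180225859, minus strand), whose start region is printed above, had 36.2, 37.1, 36.1 and 27.8 CPM in parental libraries 1 to 4. Mutant libraries 1 to 4 had 21.5, 20.9, 17.1 and 11.3 CPM. The lines did not overlap, with every mutant library below the lowest parental one, a pattern seen downwards in 4.04% of all genes tested and in either direction in 7.52%. Lama5 was the only 1 of the 10 genes with it. The means were 34.3 ± 4.35 CPM in the parental line and 17.7 ± 4.71 CPM in line 4D (SD, n = 4), a fitted level 1.93-fold lower in the mutant line. Its log2 fold change was -0.95 ± 0.24 (SE), with a 95% interval of -1.44 to -0.45 and an edgeR adjusted p of 0.0527 (unadjusted p = 0.000791). The adjusted p of Lama5 lay on either side of the threshold with the method. It was 0.0110 with DESeq2, 0.0420 with limma-voom, 0.0336 when replicates were blocked and 0.0841 with scaling by library size alone. In each of the 8 fits that left out 1 library it was above 0.05, from 0.0538 to 0.197, and without mutant library 4 the log2 fold change was -0.79 with edgeR's adjusted p at 0.0795.

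Lama1 (ENSMUSG00000032796.8, chromosome 17, 67697259 to 67822647, plus strand) had 33.1, 23.7, 17.6 and 23.8 CPM in the parental line and 35.1, 28.8, 18.3 and 25.6 CPM in line 4D. The lines overlapped almost wholly, and the log2 fold change was 0.14 ± 0.25 (SE) with edgeR's adjusted p at 0.891. Lama4 (ENSMUSG00000019846.11, chromosome 10, 38965515 to 39110188, plus strand) had 56.7, 42.9, 28.6 and 38.3 CPM in the parental line and 81.5, 43.8, 38.7 and 45.9 CPM in line 4D. Mutant library 1 stood well above the rest, while the other 3 mutant values lay inside the parental range. The log2 fold change of Lama4 was 0.34 ± 0.24 (SE) with edgeR's adjusted p at 0.639, and without mutant library 1 it was 0.03.

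**Figure D2:**
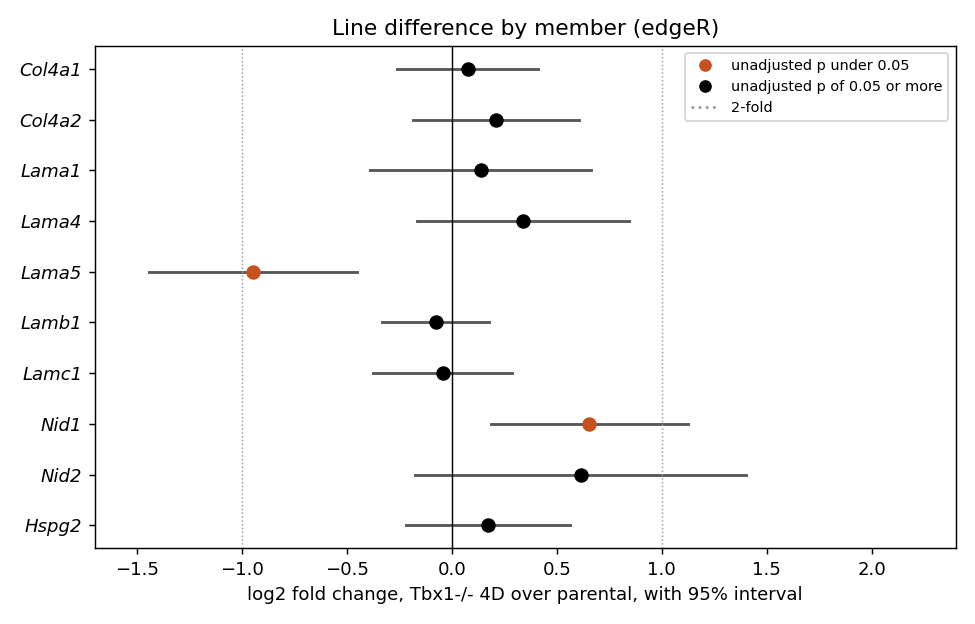
Log2 fold change of each of the 10 genes, Tbx1-/- 4D over parental, with its 95% interval from the edgeR fit; dotted lines mark 2-fold. Orange points have an unadjusted p under 0.05, and only the intervals of Lama5 (-1.44 to -0.45) and Nid1 (0.19 to 1.12) leave out 0.

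The mixture of alpha chains was compared as shares of the summed counts of Lama1, Lama4 and Lama5 in each library. Lama5 made up 28.7%, 35.8%, 43.9% and 30.9% in parental libraries 1 to 4 and 15.6%, 22.4%, 23.0% and 13.6% in mutant libraries 1 to 4. All mutant shares were below all parental shares. Exact Clopper-Pearson 95% intervals, which cover counting error only, were 25.4% to 32.2% for the lowest parental share and 19.0% to 27.4% for the highest mutant share. The mean share of Lama5 was 34.8 ± 6.72% in parental and 18.7 ± 4.76% in mutant libraries (SD, n = 4), lower by 16.2 percentage points. Lama4 made up 45.0%, 41.3%, 34.8% and 42.6% in parental and 59.0%, 46.9%, 52.2% and 55.5% in mutant libraries, again without overlap. Its mean share was higher by 12.4 percentage points in the mutant line. Each of these differences had a two-sided exact permutation p of 0.0286, the smallest that 4 against 4 libraries allow, and 0.0857 after adjustment over the 6 ratios and shares, which does not pass. The share of Lama1 was 24.2 ± 2.54% in parental and 27.96 ± 3.33% in mutant libraries, with an exact permutation p of 0.171. Without mutant library 4 the Lama5 share was lower by 14.5 points. Shares within 1 sum are tied to each other, so that the higher share of Lama4 and the lower share of Lama5 are not separate results.

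**Figure D3:**
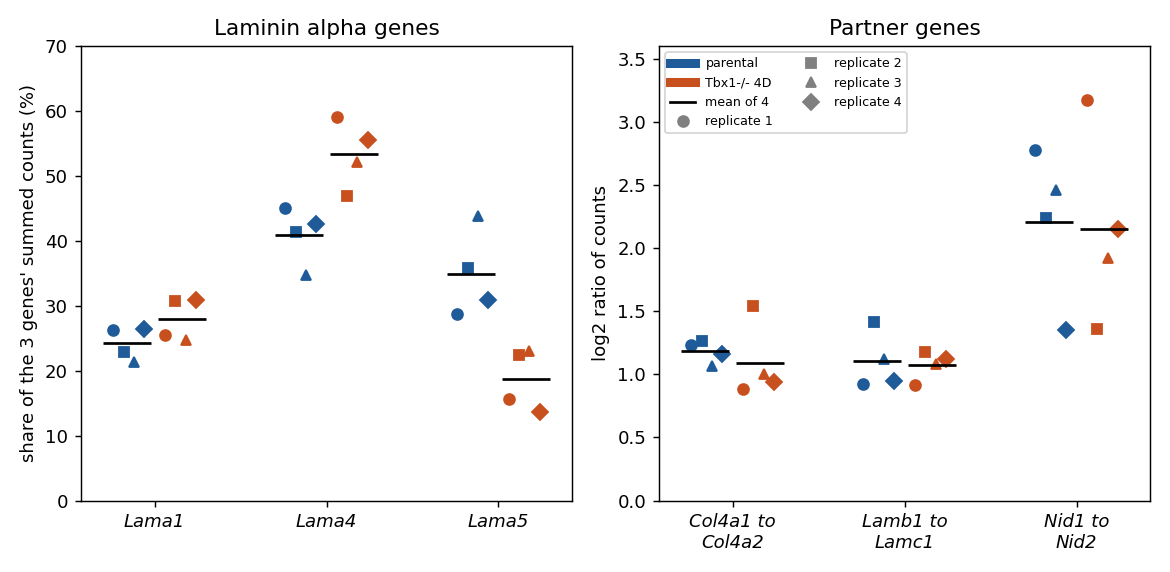
Left, share of each laminin alpha gene in the summed counts of Lama1, Lama4 and Lama5, in percent; right, log2 ratio of counts between partner genes, each point a library and each black line a mean of 4. The shares of Lama4 and Lama5 do not overlap between the lines, while the 3 ratios do.

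Lists of markers of other cell types are given beside the laminin and nidogen values, and they differed in direction. In the list for definitive endoderm and epithelium, which form Lama5-containing basement membranes, 10 of 11 genes were tested and 8 of those had negative log2 fold changes. The list's summed level was 349 to 606 CPM in the parental line and 290 to 366 CPM in line 4D. Of the 10 tested genes 2 were called lower in edgeR, against 0.67% of all genes. They were Foxa2, an endoderm transcription factor, and Krt18, an epithelial keratin, with log2 fold changes of -1.93 ± 0.42 and -0.76 ± 0.15 (SE). Cdh1 and Epcam, which define epithelia, did not pass, with log2 fold changes of 0.16 ± 0.29 and -0.29 ± 0.32 (SE). Nor did Krt8, at -0.19 ± 0.19, and Sox17, at 0.42 ± 0.25 (SE). No gene of the list was at 0 in all libraries, but Foxa1, too low to be tested, was at 0 in mutant libraries 2 to 4. The part of these cells in the Lama5 result was not tested. For the list for endothelium, a tissue rich in Lama4 and Lama5, 0 of 12 tested genes passed, 1 had an unadjusted p under 0.05 in edgeR, and 9 were positive. Its summed level was 637 to 1005 CPM in the parental line and 754 to 1377 CPM in line 4D. Mutant library 1, the library with the highest Lama4, had the 1377 CPM, and the other 3 mutant libraries had 754 to 795 CPM. The part of endothelial cells in these values was not tested. Mesenchyme and smooth muscle cells also make Lama4 and Nid1. In their list 2 of 8 tested genes were called higher in edgeR, against 0.745% of all genes. They were Twist1, a mesenchymal transcription factor, at 1.29 ± 0.18 and Postn, a matrix protein, at 2.01 ± 0.38 on the log2 scale (SE). Of the 8 log2 fold changes 5 were positive. An unadjusted p under 0.05 was found in edgeR for 4 of the 8, against 11.9% of all genes. Prrx1 did not pass, with a log2 fold change of 0.97 ± 0.25 (SE) and edgeR's adjusted p at 0.066. Pdgfrb was higher in line 4D without overlap, a pattern seen upwards in 3.49% of all genes, but did not pass. The smooth muscle genes Acta2, Tagln and Cnn1 had negative log2 fold changes that did not pass. The list's summed level was 426 to 1282 CPM in the parental line and 718 to 910 CPM in line 4D. Of the 1282 CPM, in parental library 1, Acta2 made up 1080 CPM. The part of these cells in the Lama4 and Nid1 values was not tested. Parietal and visceral endoderm, known for large amounts of collagen IV and Lama1, had summed levels of 302 to 488 CPM in the parental line and 422 to 507 CPM in line 4D. Of its 11 tested genes 1 was called higher in edgeR, against 0.745% of all genes. That was Gata6, also a transcription factor of heart-forming mesoderm, with 129 ± 20.99 CPM in the parental line and 213 ± 18.2 CPM in line 4D (SD, n = 4). The rise in the mean of these sums lay in Gata6. Of the 11 tested genes 7 had positive log2 fold changes, with a median of 0.13. Ttr of the same list had a log2 fold change of -0.71 ± 0.32 (SE), with edgeR's adjusted p at 0.388. The part of these cells in the collagen IV and Lama1 values was not tested. Cardiomyocyte genes had 625 to 3600 CPM in the parental line and 122 to 951 CPM in line 4D, the lowest in mutant library 4, and 0 of 9 tested genes passed in edgeR. All 9 log2 fold changes were negative, with a median of -1.25, and 7 had an unadjusted p under 0.05, against 11.9% of all genes. Their part in the values of the 10 genes was not tested.

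The nidogens, which link laminin and collagen IV, were both higher on average in the mutant line without passing the threshold. Nid1 (ENSMUSG00000005397.8, chromosome 13, 13437551 to 13512269, plus strand) had 47.3, 40.5, 28.9 and 37.1 CPM in the parental line and 80.1, 42.5, 44.0 and 75.6 CPM in line 4D. Mutant libraries 1 and 4 lay far above the parental range, and libraries 2 and 3 inside it. The log2 fold change of Nid1 was 0.65 ± 0.22 (SE), with a 95% interval of 0.19 to 1.12 and an edgeR adjusted p of 0.199 (unadjusted p = 0.00883). Without mutant library 4 the log2 fold change of Nid1 was 0.53, with edgeR's adjusted p at 0.349. Nid2 (ENSMUSG00000021806.4, chromosome 14, 19751265 to 19811787, plus strand) had 6.91, 8.61, 5.27 and 14.5 CPM in the parental line and 8.90, 16.6, 11.6 and 17.0 CPM in line 4D. The lines overlapped, and the values rest on 33 to 76 counts per library. The log2 fold change of Nid2 was 0.62 ± 0.38 (SE) with edgeR's adjusted p at 0.564, and its interval, 0.887-fold to 2.65-fold, was the widest of the 10. The ratio of Nid1 to Nid2 varied from 2.55 to 6.84 in parental and from 2.57 to 9.00 in mutant libraries, with no difference beyond the spread (two-sided exact permutation test, p = 0.914). Nid2 overlaps Rtraf on the opposite strand, and the deposited table's name states counting by strand.

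Perlecan, the heparan sulfate proteoglycan of basement membranes, did not differ beyond its spread. Hspg2 (ENSMUSG00000028763.18, chromosome 4, 137468769 to 137570630, plus strand) had 132, 85.4, 67.7 and 82.4 CPM in the parental line and 118, 77.1, 117 and 101 CPM in line 4D. All mutant values were inside the parental range. The log2 fold change was 0.17 ± 0.19 (SE) with edgeR's adjusted p at 0.779.

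Library to library, most of the 10 genes varied together. Parental library 1 was the highest parental library for 8 of the 10 genes, where this held for 27.0% of all genes tested. Parental library 3 was the lowest parental library for 7 of the 10, against 24.1% of all genes, and mutant library 1 the highest mutant library for 9, against 24.9%. These shares describe genes measured in the same libraries, which are not independent. Parental library 1 also had the highest parental sum of most marker lists, among them cardiomyocytes at 3600 CPM and endothelium at 1005 CPM. Neural and pluripotent cells were the exceptions. In the mutant line the endothelial sum was highest in library 1, at 1377 CPM. The cardiomyocyte sum was highest in mutant library 3, at 951 CPM, with 820 CPM in mutant library 1. Within the parental line the highest library exceeded the lowest by 1.34 times for Lama5 and by 1.42 times for Lamb1, and by up to 2.76 times for Nid2.

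**Figure D4:**
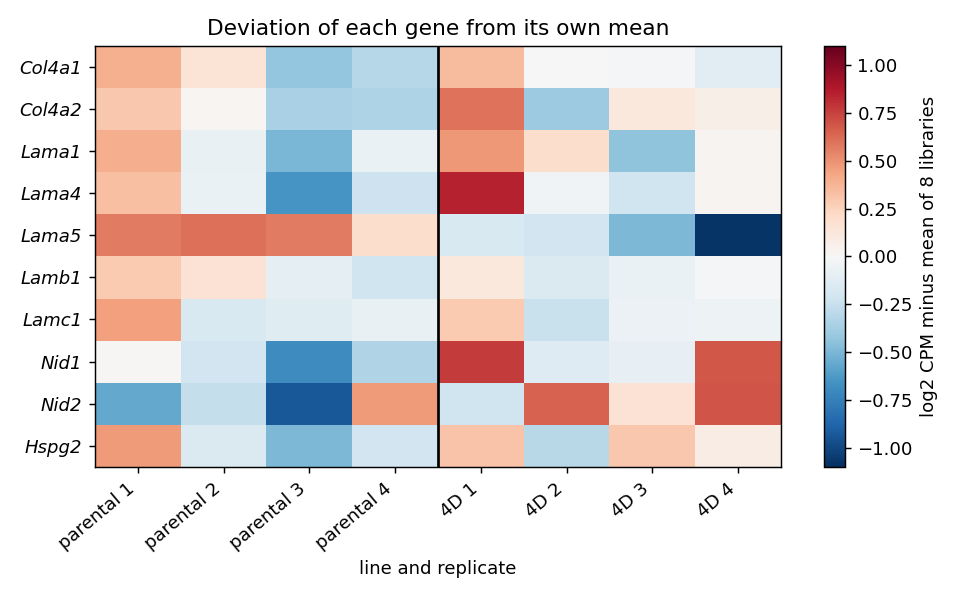
Deviation of each gene's log2 CPM from its own mean over the 8 libraries, with parental libraries left and Tbx1-/- 4D libraries right of the black line. Libraries numbered 1 are high for most genes, Lama5 is high in all parental and low in all mutant libraries, and Nid2 follows neither pattern.

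The likeness of profiles over the 8 libraries was measured as the root mean square difference of log2 CPM after each gene was centred on its own mean. Candidates were 9026 genes with a mean of at least 10 CPM. The closest pairs among the 10 were Lamb1 and Lamc1 at 0.15, Col4a2 and Hspg2 at 0.17, Col4a1 and Lamb1 at 0.17, Lama1 and Lama4 at 0.19, and Lamc1 and Hspg2 at 0.19. Both partner genes and genes of different molecules were thus among them. Col4a1 and Col4a2 differed by 0.20. Of the 9026 candidates Col4a2 ranked 137th for Col4a1, and Col4a1 ranked 59th for Col4a2. Lama5 was at least 0.53 from each of the other 9, and Nid2 at least 0.58. The genes closest to Col4a1 were Loxl2, a lysyl oxidase family enzyme, at 0.06, Dab2, an endocytic adaptor, at 0.09, and Mrpl41, a mitochondrial ribosomal protein, at 0.10. The closest to Col4a2 were Cdh5, the endothelial cadherin, at 0.10, Sparc, a collagen-binding matrix protein, at 0.11, and Chsy1, a chondroitin synthase, at 0.12. Lamc1 was closest to Mrtfa, Jam3 and the basement membrane collagen gene Col18a1, each at 0.09. Lamb1 was closest to Nt5c3, Lsm14a and Jpt1, at 0.04 to 0.08, Lama1 to Colec12, Mgat4b and Abhd6, at 0.10 to 0.16, and Nid1 to Ripor1, Dip2c and Tbkbp1, at 0.15 to 0.17. Flat profiles lie close to many others by this measure, so that it ranks likeness and shows nothing of control. Chosen after values were seen, the closest genes to Lama4 were Fgd5, Rapgef5 and the endothelial receptor gene Kdr, at 0.09 to 0.14, and those to Lama5 were Grik5, Npm3 and Paip2b, at 0.15 to 0.18.

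Other genes of basement membrane biology were examined in 5 lists of 68 genes, of which 54 were tested. In edgeR 1 of the 54 passed the threshold, upwards, and 0 passed downwards, a share of 1.85% against the 1.42% of all genes. An unadjusted p under 0.05 was found in edgeR for 10 of the 54, against 11.9% of all genes. The median log2 fold change of the 54 was 0.09, and 36 were positive. Among other collagen IV and laminin chains, 0 of 4 tested genes passed in edgeR, and 0 had an unadjusted p under 0.05. Col4a5 had 11.5 ± 6.12 CPM in the parental line and 18.7 ± 8.05 CPM in line 4D (SD, n = 4), and its neighbour Col4a6 had 13.3 ± 5.08 and 15.6 ± 3.86 CPM. These 2 collagen IV genes were thus well below Col4a1 and Col4a2. Col4a3, Col4a4, Lama3 and Lamb3 had at most 14 counts in any library and Lamc3 had 0 counts in all 8, so that their changes were not detectable at this depth.

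Of the other components, 0 of 18 tested genes passed in edgeR, and 2 had an unadjusted p under 0.05. Fras1, a matrix protein of epithelial basement membranes, had a log2 fold change of -0.48 ± 0.21 (SE) with edgeR's adjusted p at 0.369. Matn2, a matrilin, had a log2 fold change of 1.5 ± 0.64 (SE) with edgeR's adjusted p at 0.35. Among receptors, 0 of 9 passed in edgeR, and 1 had an unadjusted p under 0.05. That was Itga1, the alpha chain of a collagen IV-binding integrin, with 42.5 ± 13.3 CPM in the parental line and 67.2 ± 18.9 CPM in line 4D and an edgeR adjusted p of 0.210. Bcam, a cell surface receptor that binds the Lama5 chain, had 8.19 ± 3.51 CPM in the parental line and 3.80 ± 2.20 CPM in line 4D (SD, n = 4). Its libraries did not overlap between the lines, a pattern seen downwards in 4.04% of all genes. Its log2 fold change of -1.08 ± 0.57 (SE) had an edgeR adjusted p of 0.487.

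For folding, export and crosslinking of collagen IV, 0 of 12 tested genes passed in edgeR. An unadjusted p under 0.05 was found for 4 of the 12, against 11.9% of all genes. Mia3, which loads bulky collagens into export carriers, had 165 ± 16.2 CPM in the parental line and 203 ± 16.1 CPM in line 4D, with an edgeR adjusted p of 0.283. Its libraries did not overlap between the lines, a pattern seen upwards in 3.49% of all genes. Pxdn, the peroxidasin that forms the sulfilimine crosslinks of collagen IV, had 103 ± 7.31 and 129 ± 18.4 CPM with edgeR's adjusted p at 0.313. The other 2 of the 4, named after their values were seen, went the other way: Plod2, a lysyl hydroxylase, had a log2 fold change of -0.42 ± 0.18 and P4ha1, a prolyl hydroxylase subunit, one of -0.69 ± 0.30 (SE), with edgeR adjusted p of 0.346 and 0.358. Among remodelling genes, 1 of 11 passed in edgeR, against 1.42% of all genes, and 3 had an unadjusted p under 0.05, against 11.9%. Adamts1 (ENSMUSG00000022893.14, chromosome 16, 85793827 to 85803113, minus strand), a secreted protease that cleaves proteoglycans, had 56.5, 58.5, 39.9 and 41.3 CPM in the parental line and 136, 115, 117 and 81.4 CPM in line 4D. Every mutant library was above every parental one, a pattern seen upwards in 3.49% of all genes. Adamts1 rose with a log2 fold change of 1.20 ± 0.18 (SE) and an edgeR adjusted p of 0.00108. The adjusted p of Adamts1 stayed under 0.05 in all 19 other fits, up to 0.0104.

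**Figure D5:**
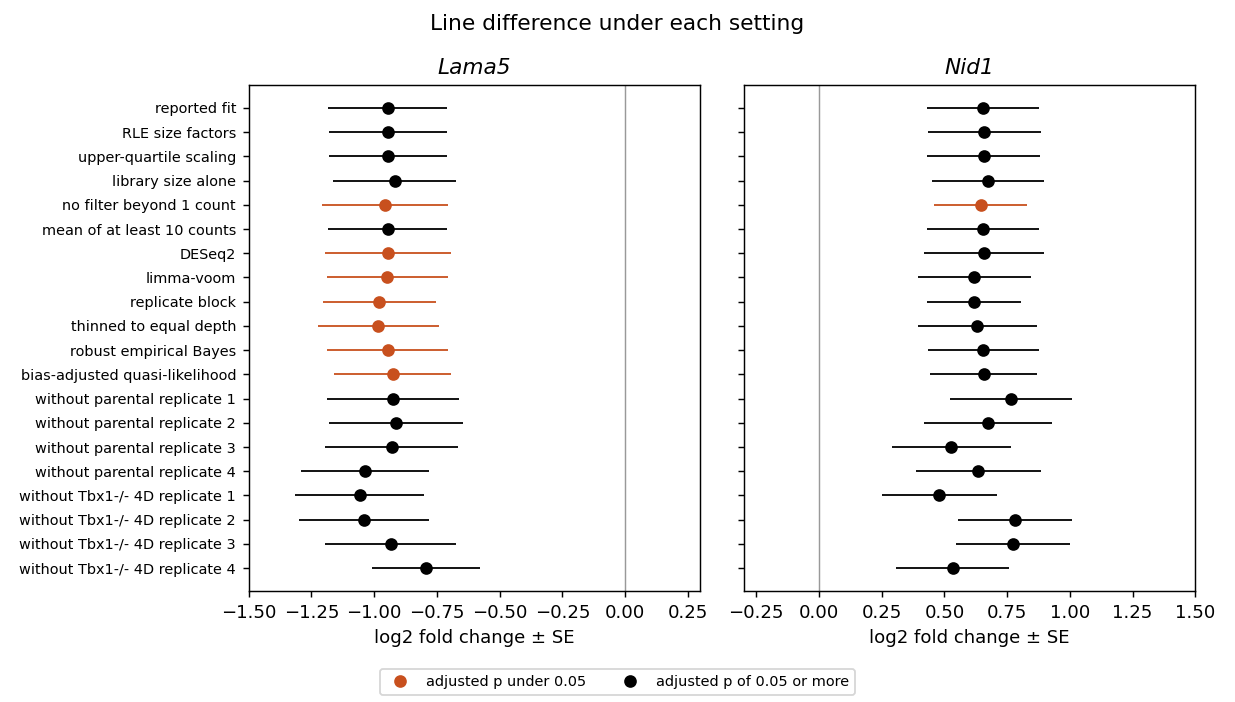
Log2 fold change with its SE for Lama5, left, and Nid1, right, in the reported fit and 19 other settings; orange marks an adjusted p under 0.05. Lama5 ranges from -1.06 to -0.79 and is orange in 7 settings, none of them among the 8 that leave out a library, and Nid1 is orange only where the filter on low counts is removed.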

How the data were processed

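RNA of 4 parental and 4 Tbx1-/- 4D cultures was measured with QuantSeq, which reads transcript 3′ ends. The authors deposited whole-number counts per gene and library, not normalized and not pooled. STAR, featureCounts and mm10 are named, without versions, in the submitters' processing notes; the annotation is not given in the sources used here. Gene identifiers were matched, version dropped, to GENCODE M21 (GRCm38, the build called mm10), which named 55227 of 55487 rows.

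Depth was 3803561 to 6293907 counts per library. In edgeR 4.0.16 (R 4.3.3), filterByExpr kept 13280 genes with 99.5% of counts, libraries were scaled by TMM, and line was tested by glmQLFit and glmQLFTest at their defaults (two-sided, Benjamini-Hochberg over all genes). Standard errors derive from the F statistic, and 95% intervals from these and the t distribution. Ratios and shares were tested by exact permutation over 70 assignments. P-values measure the spread between these cultures. Profiles used log2 CPM with a prior count of 2. The code was tested on simulated data. A gene of the related lists is not reported here. The 10 genes and all lists were chosen with earlier results of these data known.

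Named genes were Tbx1, the 10 members, per basement membrane list the genes called or else the 2 with the smallest p, and the 3 closest profiles of 6 members; genes named outside this rule are markers beside a result or were chosen after their values were seen. Alternatives were RLE, upper-quartile and library-size scaling, 2 other filters, DESeq2 1.42.0, limma-voom (limma 3.58.1), a replicate block, thinning to equal depth and leaving out each library; robust empirical Bayes and the bias-adjusted quasi-likelihood were added after the data were seen. The fit had no replicate block because only a number in the titles could pair the libraries. Marker lists not set beside a result were primitive erythroid, neural and pluripotent cells. Of the erythroid genes 4 of 9 were called higher in edgeR, against 0.745% of all genes. Their summed level was 130 to 185 CPM in the parental line and 685 to 985 CPM in line 4D. Of the neural genes 0 of 6 were called in edgeR, 1 with an unadjusted p under 0.05. Of the pluripotent genes 0 of 5 were called in edgeR, 0 with an unadjusted p under 0.05.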

Additional observations from a re-analysis of the deposited data

Results flagged for a closer look

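In groups of 4, a library was marked when its gap to the nearest other library exceeded 0.829 of the group's range, Dixon's 95% critical value. Of 34 groups examined, 3 were marked, where chance marks about 1 in 20. Lama4 in mutant library 1 was at 81.5 CPM, with the other mutant libraries at 38.7 to 45.9 CPM. Lama5 in parental library 4 was at 27.8 CPM, below the other parental libraries at 36.1 to 37.1 CPM. Lamc1 in parental library 1 was at 142 CPM, above the other parental libraries at 92.9 to 98.4 CPM.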

How the results depend on the processing

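All 10 genes kept their direction under the 11 settings that used all libraries, the scalings among them, and 6 kept it in all 19. With 1 library left out, log2 fold changes ranged from -0.049 to 0.24 for Col4a1, -0.025 to 0.31 for Lama1, -0.16 to 0.0081 for Lamb1 and -0.16 to 0.12 for Lamc1. None of the 10 was called in the reported fit. Lama5 alone, 1 gene, was called with DESeq2, limma-voom, the replicate block, thinning, robust empirical Bayes and the bias-adjusted quasi-likelihood. Removing the filter called 2, Lama5 and Nid1 (adjusted p 0.0125 and 0.0377), and 2 related genes, Adamts1 and Itga1. Over all genes the 188 calls became 439 without the filter, 405 with DESeq2, 314 with the bias-adjusted quasi-likelihood and 103 to 235 with 1 library left out; they were fewest without parental library 2 (103), parental library 3 (104) and mutant library 3 (116). Library size alone called 157 genes, 63.7% of them higher, against 52.7% with TMM. The causes were not tested. With 1 library left out, the log2 ratio difference ranged from -0.090 to 0.073 for Lamb1 to Lamc1 and from -0.39 to 0.21 for Nid1 to Nid2, and the share of Lama5 was lower by 13.2 to 18.2 points. A replicate block gave 234 calls, 172 of which belonged to the 188; the share difference of Lama5 over the 4 same-numbered pairs was -16.2 points with an exact sign-flip p of 0.125, the smallest that 4 pairs allow. Same-numbered libraries deviated together with correlations of 0.10, 0.02, -0.03 and 0.03. Libraries of different numbers had correlations of -0.08 to 0.06, with a mean of -0.01, so that only number 1 exceeded them all. The numbers were not taken as pairs in the reported fit. The lowest counts behind a value of the 10 genes were 33 to 76 per library for Nid2 and 41 for Lama5 in mutant library 4.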
